A study of Mus musculus with 6 samples.

Results

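Complement is the set of plasma proteins, membrane regulators and receptors that marks microbes and damaged cells for removal, and 32 of its mouse genes were examined in whole livers of FRG mice. A gene was taken as measured where at least 1 probe set of the array carried its symbol and no other in the array annotation. Where a gene had several, the brightest one stood for it, judged by its average log2 value across all 6 arrays. This gave 28 of the 32 genes, read by 49 probe sets, out of 18193 genes read by the array in the same way. C3, C4b, C7 and Cfd had no probe set with their symbol alone and were not analysed here. FRG mice, on a C57Bl/6J background, carry knockouts of Fah, Rag2 and Il2rg in every cell. They therefore lack the last enzyme of tyrosine breakdown, as in hereditary tyrosinemia type 1, and are without mature T, B and NK cells, while macrophages and other myeloid cells are still present. NTBC (nitisinone) blocks HPD, an earlier enzyme of the same pathway, and so keeps toxic tyrosine metabolites from forming. The FRG-7dNTBC group consisted of 3 male mice of 12 weeks from which NTBC had been withheld for 7 days, starting at 11 weeks of age. The FRG+NTBC group consisted of 3 male mice of 12 weeks that drank NTBC at 16 mg/L throughout. All 6 mice ate a low-tyrosine, low-phenylalanine chow, and total RNA of each liver was hybridised to its own Affymetrix mouse expression array. Values are array intensities on a linear scale, fold changes are given on the log2 scale and are positive where FRG-7dNTBC livers were higher, and adjusted p-values are those of limma over all 45037 probe sets with Benjamini-Hochberg adjustment. A gene is said to have risen or fallen only where its adjusted p was under 0.05.

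Most plasma complement proteins are made by hepatocytes. C1q and ficolin A come mainly from macrophages, which in the liver are the Kupffer cells, and properdin mainly from myeloid cells. Genes assigned to macrophages or other myeloid cells are called macrophage-made here. The classical pathway starts when C1q binds antibody or a damaged surface and turns on the proteases C1r and C1s, and the lectin pathway starts when mannose-binding lectins, ficolins or collectins bind sugars and turn on the MASP proteases. Both cut C4 and C2 into a convertase that cleaves C3. The alternative pathway builds its own convertase from C3b and factor B, stabilised by properdin. All routes end in the cleavage of C5, after which C6, C7, C8 and C9 assemble into the pore called the membrane attack complex.

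Arrays of the same group correlated at 0.98 to 0.99 among FRG-7dNTBC livers and at 0.988 to 0.993 among FRG+NTBC livers, and arrays of different groups at 0.93 to 0.955. Of the hepatocyte markers, 5 of 7 were measured and none passed the test of limma in either direction (1 was lower at an unadjusted p under 0.05), with a summed level of 106335 to 109238 in FRG-7dNTBC livers and 111865 to 115343 in FRG+NTBC livers. Albumin itself read 27364, 26616 and 27939 in FRG-7dNTBC livers, against 26616, 25355 and 25355 in FRG+NTBC livers. Its mean log2 value over the 6 arrays was 14.70, beside 13.35 for Clu, the brightest complement gene. Whether the array would show a loss at so high a level was not tested. The authors' RT-qPCR gave albumin a slight decrease that was not significant. Of 10 Kupffer cell and macrophage markers, 6 rose and none fell, but only 3 rose once FRG-7dNTBC replicate 1 or FRG+NTBC replicate 1 was omitted, and 2 once FRG+NTBC replicate 2 was. The other lists of cell type markers were called in fewer genes, with 2 of 5 endothelial and 1 of 5 stellate markers higher. Over all genes of the array 17.4% were higher and 12.7% lower, so the stellate count is near that share. There was no call among 5 monocyte and neutrophil, 6 lymphocyte and 4 cholangiocyte markers (at an unadjusted p under 0.05, 1 cholangiocyte marker was higher and 1 lower, and no marker of the monocyte and neutrophil or lymphocyte lists). With single mice omitted, the endothelial count was 1 without FRG-7dNTBC replicate 1, FRG+NTBC replicate 1 or FRG+NTBC replicate 2, omission of FRG-7dNTBC replicate 2 gave 2 stellate calls and that of FRG+NTBC replicate 3 gave 0, and 1 cholangiocyte marker rose without FRG-7dNTBC replicate 2. The probe sets of Rag2 and Fah do not check the labels, because both groups carry the same knockouts and the sources used here do not give their place relative to the deleted parts.

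In their brightest probe sets, complement genes made by hepatocytes fell or did not pass the test, and those made by macrophages rose or did not pass it. Of the 28 measured genes, 5 rose and 12 fell, where over all genes of the array 17.4% rose and 12.7% fell. Of their 49 probe sets, 6 rose and 18 fell, where over all probe sets 14.0% rose and 13.9% fell. All 12 that fell belong to the 18 measured hepatocyte-made genes, and none of these 18 rose by limma (1, Mbl2, was higher at an unadjusted p under 0.05). Their median log2 fold change was -1.15 (range -3.90 to 0.31), beside -0.05 over all genes. Of the 7 macrophage-made genes, which are the C1q chains, Fcna, Cfp and the receptors C3ar1 and C5ar1 that myeloid cells carry, 4 rose and none fell by the brightest probe set (none at an unadjusted p under 0.05 either), with a median of 1.06. The other probe set of Cfp fell (log2 fold change -0.79). Of the 3 genes assigned to neither source, Cd55 rose and Colec11 and Cd59a did not pass. The summed intensity of the hepatocyte-made genes was 46221 to 50111 in FRG-7dNTBC livers and 81213 to 93472 in FRG+NTBC livers, and that of the macrophage-made genes was 1148 to 1683 in FRG-7dNTBC livers and 559.0 to 928.5 in FRG+NTBC livers. In whole liver, fewer cells of a type and less RNA per cell cannot be told apart. At least a 2-fold fall was called in 9 of the 28 genes, against 4.95% of all genes, and at least a 2-fold rise in 4, against 8.94%. The groups did not overlap in 23 of the 28 genes, against 46.2% of all genes. The number of genes that rose depended on single mice, with 1 call once FRG-7dNTBC replicate 1 was omitted and 2 calls once FRG+NTBC replicate 1 or 2 was, while the number that fell was 11 or 12 whichever mouse was left out. Replicate 2 gave the lowest value among the FRG-7dNTBC livers for 18 of the 28 genes, 11 of them hepatocyte-made and 5 macrophage-made.

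**Figure D1:**
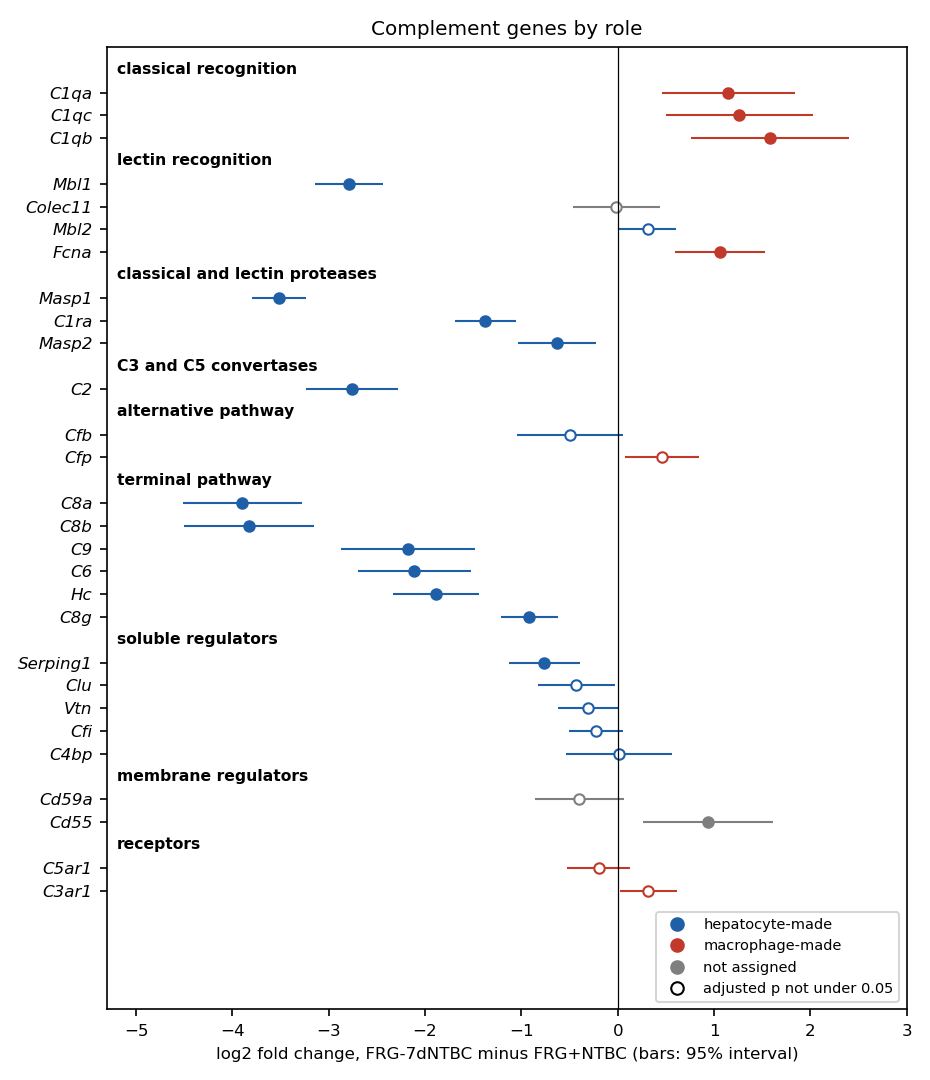
Difference in mean log2 intensity between FRG-7dNTBC and FRG+NTBC livers (n = 3 mice each) of the 28 measured complement genes, in rows grouped by role, with 95% intervals as bars, colours for the main source of the protein and filled points for an adjusted p under 0.05. The filled points left of 0 are all hepatocyte-made, with C8a at -3.90 farthest out, while C1qa, C1qb, C1qc and Fcna lie right of 0.

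Every measured gene of the terminal pathway fell, 6 of 6, where over all genes 12.7% did. Their median log2 fold change was -2.14. C8 is built of an alpha, a beta and a gamma chain, and it precedes C9 in the assembly of the pore. C8a, the alpha chain, had intensities of 699, 380.0 and 792 in FRG-7dNTBC livers, against 7643, 9608 and 9476 in FRG+NTBC livers. All FRG-7dNTBC livers lay far below all FRG+NTBC livers, and the mean was 14.9-fold lower (log2 fold change -3.90, SE 0.27, adjusted p = 8.05e-05). C8b, the beta chain, read 231, 131 and 199 in FRG-7dNTBC livers, against 1722, 3373 and 2937 in FRG+NTBC livers, which was 14.2-fold lower (log2 fold change -3.82, SE 0.29, adjusted p = 0.00012). Among 18193 genes ordered by log2 fold change, these 2 stood at places 27 and 28 from the lowest. C8g, the gamma chain, a lipocalin that joins the alpha chain, fell much less and averaged 3822 ± 69.8 in FRG-7dNTBC livers and 7244 ± 799 in FRG+NTBC livers (SD, n = 3 each, log2 fold change -0.92, SE 0.13, adjusted p = 0.00144). The fold change of C8a was lower than that of C8g, with a difference of -2.98 on the log2 scale, and so was that of C8b, with a difference of -2.91, whereas C8a and C8b differed by -0.07. These are among 8 pairs of probe sets compared after their values had been seen. An exact two-sided permutation test gave p = 0.1 for each of the first pairs, the smallest that 3 mice against 3 allow (adjusted over the 8 pairs, 0.114), and p = 0.7 for the last.

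C8a and C8b lie next to each other on chromosome 4, with no protein-coding gene between them in RefSeq. Their promoters are shown because both genes fell by a like amount, each from 250 bases before to 50 bases after the start in RefSeq (GRCm38.p6), written 5′ to 3′, with capitals for a match to the STAT motif TTCNNNGAA. The C8a window is chr4:104876349-104876648, minus strand, and the C8b window is chr4:104766067-104766366, plus strand.
C8a: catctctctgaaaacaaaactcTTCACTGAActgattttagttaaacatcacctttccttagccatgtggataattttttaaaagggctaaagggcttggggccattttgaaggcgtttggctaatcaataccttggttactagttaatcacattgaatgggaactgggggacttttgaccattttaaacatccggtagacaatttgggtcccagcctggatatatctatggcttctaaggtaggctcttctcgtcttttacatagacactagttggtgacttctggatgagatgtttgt
C8b: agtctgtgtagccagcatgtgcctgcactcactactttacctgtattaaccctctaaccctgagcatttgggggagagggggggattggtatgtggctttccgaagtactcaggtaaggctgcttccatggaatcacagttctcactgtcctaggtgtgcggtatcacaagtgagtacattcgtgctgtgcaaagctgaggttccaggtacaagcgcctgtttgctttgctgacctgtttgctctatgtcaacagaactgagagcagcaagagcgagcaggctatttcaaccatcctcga
The single match, TTCACTGAA, begins 228 bases before the C8a start, and the C8b window held none of the 4 motifs searched. The STAT letters occur in 8.3% of the 32851 promoters of the table.

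Hc encodes C5, whose cleavage releases the attractant C5a and starts pore assembly. Its intensities were 1859, 1499 and 1820.3 in FRG-7dNTBC livers, against 4804, 7486 and 7132 in FRG+NTBC livers, a fall of 3.7-fold with no overlap (log2 fold change -1.89, SE 0.19, adjusted p = 0.000385). C9, which polymerises to line the pore, read 2557, 1278 and 3104 in FRG-7dNTBC livers, against 9089.6, 9542 and 10809 in FRG+NTBC livers (4.52-fold lower, log2 fold change -2.18, SE 0.30, adjusted p = 0.00137). Replicate 2 was the lowest FRG-7dNTBC liver for C9 as it was for C8a and C8b. C6, which binds C5b first, read 108, 96.3 and 109 in FRG-7dNTBC livers, against 296, 491 and 626 in FRG+NTBC livers (4.32-fold lower, log2 fold change -2.11, SE 0.25, adjusted p = 0.000742). The FRG-7dNTBC values of C6 lay close together while those of FRG+NTBC livers spread more widely, and the groups were still apart. All 6 terminal genes kept their call under each alternative processing tried, including the omission of any 1 mouse.

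**Figure D2:**
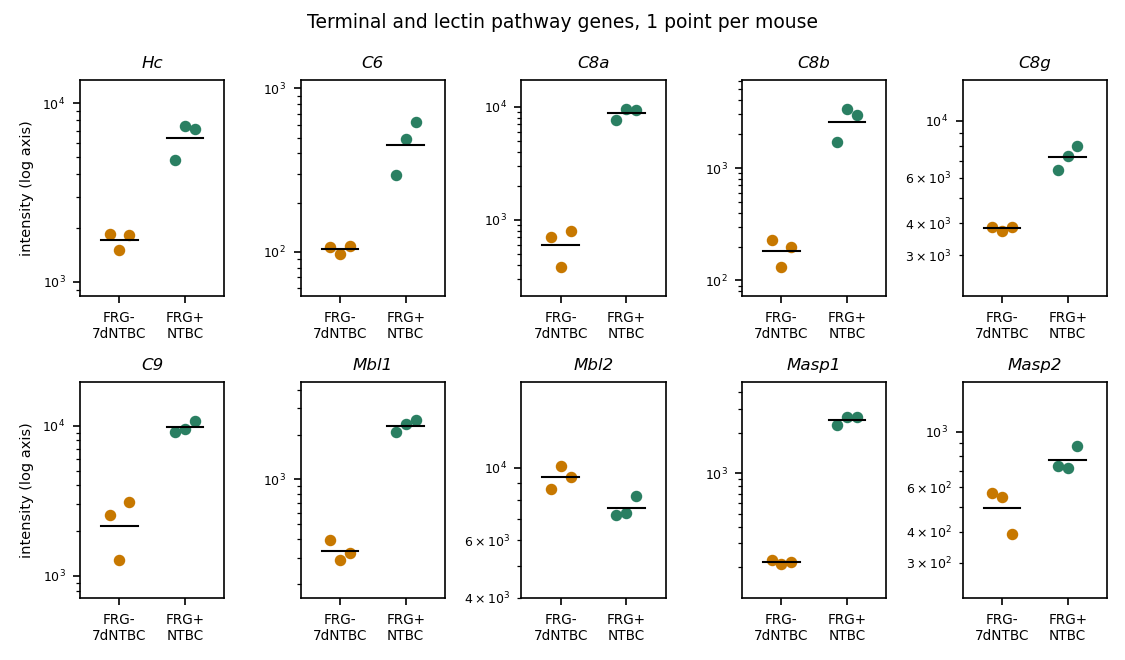
Array intensity (log axis, its range set per panel) of 6 terminal pathway genes and 4 lectin pathway genes, 1 point per mouse (n = 3 per group) and a line at the geometric mean. FRG-7dNTBC livers lie below all FRG+NTBC livers in every panel but that of Mbl2, where they lie above them at 8599 to 10156.

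The lectin pathway split gene by gene. Mice have a pair of mannose-binding lectins, and Mbl1 and Mbl2 encode MBL-A and MBL-C. Mbl1 read 393, 288 and 324 in FRG-7dNTBC livers, against 2077, 2336 and 2487 in FRG+NTBC livers, a fall of 6.9-fold (log2 fold change -2.79, SE 0.15, adjusted p = 3.41e-05). Mbl2 read 8599, 10156 and 9345 in FRG-7dNTBC livers, against 7181, 7281 and 8192 in FRG+NTBC livers and did not pass the test (log2 fold change 0.31, SE 0.13, adjusted p = 0.109). Thus every FRG-7dNTBC liver was below every FRG+NTBC liver for one lectin and above every one of them for the other. The difference between the 2 fold changes was -3.10 on the log2 scale (exact permutation p = 0.1, the smallest possible). Their RefSeq promoters (GRCm38.p6) are shown because the genes are paralogues that behaved differently. Capitals mark the longest run of identical letters, 13 bases, which begins 23 bases before the start of Mbl1 and 57 bases before that of Mbl2, and the windows are chr14:41151206-41151505, plus strand and chr19:30232678-30232977, plus strand.
Mbl1: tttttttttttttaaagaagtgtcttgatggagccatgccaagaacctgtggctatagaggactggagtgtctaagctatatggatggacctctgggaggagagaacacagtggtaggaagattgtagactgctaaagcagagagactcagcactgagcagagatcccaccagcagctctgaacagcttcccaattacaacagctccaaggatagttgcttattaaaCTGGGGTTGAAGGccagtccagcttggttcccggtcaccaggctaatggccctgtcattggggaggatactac
Mbl2: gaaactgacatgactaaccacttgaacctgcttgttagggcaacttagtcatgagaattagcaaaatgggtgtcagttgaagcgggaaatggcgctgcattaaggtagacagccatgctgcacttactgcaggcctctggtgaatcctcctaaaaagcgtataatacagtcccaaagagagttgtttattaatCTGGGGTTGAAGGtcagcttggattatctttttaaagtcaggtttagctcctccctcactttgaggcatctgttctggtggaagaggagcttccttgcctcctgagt
Neither window held a match to any of the 4 motifs searched. The other lectin-pathway sensors were Fcna, described with the macrophage-made genes, and Colec11, a collectin that also binds sugars, which averaged 961 ± 168 in FRG-7dNTBC livers and 973 ± 189 in FRG+NTBC livers (SD, n = 3 each) and did not pass (log2 fold change -0.01, SE 0.19, adjusted p = 0.968).

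All 3 measured proteases of the classical and lectin pathways fell, where over all genes 12.7% did. C1ra encodes C1r, the protease that activates C1s, and read 605, 541 and 471 in FRG-7dNTBC livers, against 1287, 1458 and 1428 in FRG+NTBC livers (2.59-fold lower, log2 fold change -1.37, SE 0.14, adjusted p = 0.000354). Its partner C1s1, which was not on the list of 32 and is named because its product is cut by C1r, read 280.1, 224 and 280.1 in FRG-7dNTBC livers, against 1323, 1783 and 1783 in FRG+NTBC livers (log2 fold change -2.63, SE 0.17, adjusted p = 5.94e-05). The probe set used for C1s1 is of the cross-matching kind, which can also read other transcripts. In the probe sets used for both proteases of the C1 complex, no FRG-7dNTBC liver reached the range of FRG+NTBC livers. Masp1 encodes proteases of the lectin pathway, which differ by alternative splicing. Its brightest probe set read 228, 211 and 219.8 in FRG-7dNTBC livers, against 2288, 2647 and 2610.3 in FRG+NTBC livers, a fall of 11.4-fold and the smallest adjusted p among the 28 genes (log2 fold change -3.52, SE 0.12, adjusted p = 7.69e-06). The other 4 probe sets of Masp1 had log2 fold changes between -0.83 and -0.53, of which 2 passed the test. Between the brightest and the second brightest probe set the fold changes differed by -2.69 on the log2 scale (exact permutation p = 0.1).

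Masp2 encodes the lectin-pathway protease that cuts C4 and C2, and also a short protein without the protease domain. Its brightest probe set read 568, 549 and 391 in FRG-7dNTBC livers, against 729, 714 and 873 in FRG+NTBC livers (1.55-fold lower, log2 fold change -0.63, SE 0.18, adjusted p = 0.0302). This call was lost when FRG-7dNTBC replicate 3 was omitted, with an adjusted p of 0.0558, and also with 0.0631, 0.0672 and 0.097 without FRG+NTBC replicate 1, 2 and 3 in turn. The other probe set read 148, 97.0 and 163 in FRG-7dNTBC livers, against 1499, 1287 and 1379.6 in FRG+NTBC livers (10.4-fold lower, log2 fold change -3.38, SE 0.20, adjusted p = 4.81e-05). Both probe sets were lower in every FRG-7dNTBC liver, and their fold changes differed by -2.75 on the log2 scale (exact permutation p = 0.1). The annotation used here does not say which transcript of Masp1 or Masp2 each probe set reads.

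**Figure D3:**
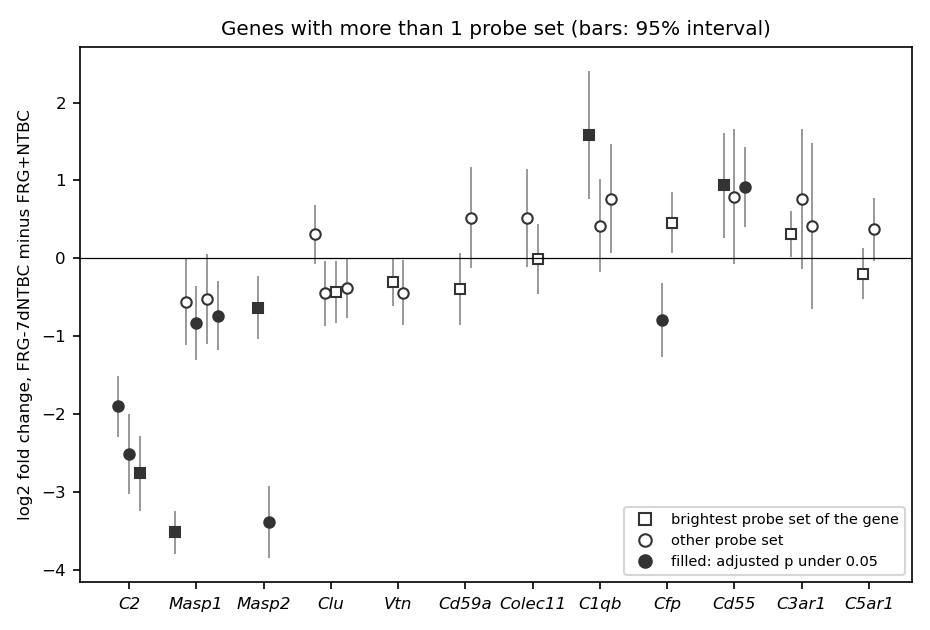
Difference in mean log2 intensity between FRG-7dNTBC and FRG+NTBC livers (n = 3 mice each) of every probe set of the 12 complement genes that had more than 1, with 95% intervals, squares for the brightest probe set of a gene and filled symbols for an adjusted p under 0.05. The 3 probe sets of C2 lie between -2.76 and -1.90, whereas those of Masp1, Masp2 and Cfp lie farther apart.

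C2 and Cfb are neighbours on chromosome 17, separated by 87 bases in RefSeq, and encode the catalytic subunits of the convertases of the classical and lectin pathways and of the alternative pathway. C2 read 296, 175 and 286 in FRG-7dNTBC livers, against 1758, 1698 and 1541 in FRG+NTBC livers, a fall of 6.77-fold without overlap (log2 fold change -2.76, SE 0.21, adjusted p = 0.000116), and its other 2 probe sets fell too, with log2 fold changes of -2.51 and -1.90. Cfb read 1144, 1201 and 662 in FRG-7dNTBC livers, against 1585, 1201 and 1333 in FRG+NTBC livers and did not pass (log2 fold change -0.49, SE 0.24, adjusted p = 0.165, 95% interval -1.04 to 0.06). For Cfb, replicate 2 of the FRG-7dNTBC livers and replicate 2 of the FRG+NTBC livers had nearly the same value, and replicate 3 of the FRG-7dNTBC livers was the lowest of all 6. The fold changes of the 2 neighbours differed by -2.27 on the log2 scale (exact permutation p = 0.1). The other measured gene of the alternative pathway, Cfp (properdin), is described with the macrophage-made genes.

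Of the 5 soluble regulators, which keep complement from acting on host cells, 1 fell and none rose. Over all genes 12.7% fell and 17.4% rose, so these counts are near those shares. Serping1, the C1 inhibitor that blocks C1r, C1s and the MASPs, averaged 3377 ± 442 in FRG-7dNTBC livers and 5729.6 ± 835 in FRG+NTBC livers (SD, n = 3 each) and was the one that fell (log2 fold change -0.76, SE 0.16, adjusted p = 0.00982). Cfi, the protease factor I that degrades C3b and C4b, averaged 5472 ± 283 in FRG-7dNTBC livers and 6396 ± 501 in FRG+NTBC livers and did not pass (log2 fold change -0.22, 95% interval -0.51 to 0.06). C4bp, its cofactor for C4b, averaged 1804 ± 406 in FRG-7dNTBC livers and 1795 ± 458 in FRG+NTBC livers and did not pass (log2 fold change 0.01, 95% interval -0.54 to 0.56). These intervals set the limits of what was measured, since a p above the threshold does not show that the groups were alike. Vtn (vitronectin) and Clu (clusterin), which bind nascent membrane attack complexes in plasma, had log2 fold changes of -0.31 (adjusted p = 0.13) and -0.43 (adjusted p = 0.103). Of the 4 probe sets of Clu none passed, and 1 of them was higher in FRG-7dNTBC livers, with a log2 fold change of 0.31. Hc fell by more than Cfi, with a difference of -1.66 on the log2 scale (exact permutation p = 0.1).

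Promoters of the measured genes were scanned on both strands for 4 sets of letters of factors known to act on liver genes. The table held 21 of the 28 genes, among them 9 of the 12 that fell. The C/EBP letters TTGCNNAA were in 2 of these 9 (C1ra and C9), against 10.8% of all promoters of the table. The HNF1 letters GTTAATNAT were in 1 of the 9 (Hc), against 0.801%, and the NF-kB letters GGNNTTTCC were in none, against 5.82%. The STAT letters were in 3 of the 9 (C1ra, C8a and Masp2). Among the 8 genes that did not pass, 1 had the HNF1 letters (C4bp), 2 the STAT letters (Colec11 and Vtn) and 1 the NF-kB letters (C3ar1). None of the motifs was found in the promoters of the 4 genes that rose and were in the table, and no 2 matches overlapped. The RefSeq promoters of Hc and C4bp (GRCm38.p6) are shown because they hold the rarest of these motifs, in capitals, although Hc fell and C4bp did not pass. The match begins 77 bases before the Hc start and 64 bases before the C4bp start, and the windows are chr2:35061363-35061662, minus strand and chr1:130661569-130661868, minus strand.
Hc: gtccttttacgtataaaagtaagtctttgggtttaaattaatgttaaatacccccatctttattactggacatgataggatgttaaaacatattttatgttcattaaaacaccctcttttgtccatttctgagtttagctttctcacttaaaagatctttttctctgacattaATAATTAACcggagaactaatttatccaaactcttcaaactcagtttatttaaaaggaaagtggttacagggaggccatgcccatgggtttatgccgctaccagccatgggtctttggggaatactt
C4bp: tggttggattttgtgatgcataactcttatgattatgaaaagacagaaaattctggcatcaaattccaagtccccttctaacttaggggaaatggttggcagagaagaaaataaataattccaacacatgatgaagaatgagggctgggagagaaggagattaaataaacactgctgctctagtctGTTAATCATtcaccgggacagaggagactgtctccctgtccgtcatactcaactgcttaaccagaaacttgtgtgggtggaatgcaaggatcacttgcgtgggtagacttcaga
The Hc match, ATAATTAAC, is the reverse complement of the motif, and the C4bp match, GTTAATCAT, has its orientation. Such matches describe the letters only and are not shown to be bound.

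All 3 chains of C1q, the recognition molecule of the classical pathway, rose, where over all genes 17.4% did. Their genes C1qb, C1qc and C1qa follow one another on chromosome 4 with no protein-coding gene between them. C1qa read 369.6, 247 and 455 in FRG-7dNTBC livers, against 125, 128 and 237 in FRG+NTBC livers (2.22-fold higher, log2 fold change 1.15, SE 0.30, adjusted p = 0.0239). C1qb read 375, 269 and 304 in FRG-7dNTBC livers, against 56.5, 124 and 162 in FRG+NTBC livers (3-fold higher, log2 fold change 1.58, SE 0.35, adjusted p = 0.0124). C1qc read 319.6, 198 and 319.6 in FRG-7dNTBC livers, against 70.5, 119 and 175 in FRG+NTBC livers (2.4-fold higher, log2 fold change 1.26, SE 0.33, adjusted p = 0.0242). For each chain the lowest FRG-7dNTBC liver was replicate 2 and the highest FRG+NTBC liver was replicate 3, and the groups did not overlap. The other 2 probe sets of C1qb did not pass, with log2 fold changes of 0.42 and 0.76. The calls depended on single mice. When FRG-7dNTBC replicate 1 was omitted, adjusted p became 0.0806 for C1qa, 0.0529 for C1qb and 0.0881 for C1qc. C1qa and C1qc were lost as well without FRG+NTBC replicate 1 (adjusted p = 0.0856 and 0.0565) and without FRG+NTBC replicate 2 (adjusted p = 0.0942 and 0.0723).

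Fcna, the ficolin that liver macrophages secrete as a sensor of the lectin pathway, rose with less spread. It read 372, 239 and 307 in FRG-7dNTBC livers, against 140.1, 121 and 176 in FRG+NTBC livers (2.09-fold higher, log2 fold change 1.06, SE 0.20, adjusted p = 0.00619), and its call held whichever mouse was left out. Cfp, properdin, read 174, 118 and 167 in FRG-7dNTBC livers, against 105, 113 and 111 in FRG+NTBC livers in its brightest probe set, which did not pass (log2 fold change 0.46, SE 0.17, adjusted p = 0.0774). The other probe set of Cfp went the opposite way, with 80.5, 61.4 and 104 in FRG-7dNTBC livers, against 137, 159 and 121 in FRG+NTBC livers, and fell (log2 fold change -0.79, SE 0.21, adjusted p = 0.0238). No direction is therefore given for this gene. C3ar1, the receptor of C3a on myeloid cells, differed by 0.32 on the log2 scale (adjusted p = 0.104), and C5ar1, the receptor of C5a, by -0.20 (adjusted p = 0.344). Neither receptor passed in any of its probe sets. The intensities of C5ar1 were low in all livers, 20.0, 24.1 and 18.5 in FRG-7dNTBC livers and 21.9, 24.9 and 24.6 in FRG+NTBC livers.

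Some markers of macrophages rose beside these genes, and others did not pass the test. The 10 Kupffer cell and macrophage markers measured had a median log2 fold change of 0.96. Their summed level was 2435 to 6120 in FRG-7dNTBC livers and 1914 to 2915 in FRG+NTBC livers. Of these markers 6 rose, where over all genes 17.4% did. This count depended on single mice as that of the C1q chains did, with 3 calls once FRG-7dNTBC replicate 1 or FRG+NTBC replicate 1 was omitted, 2 once FRG+NTBC replicate 2 was, and 1 without moderation of the variances. Cd68, a lysosomal protein of macrophages, rose most among them (log2 fold change 2.23, SE 0.17, adjusted p = 0.000126), followed by Cd5l (log2 fold change 1.84, SE 0.30, adjusted p = 0.00308) and Vsig4, itself a complement receptor of Kupffer cells (log2 fold change 1.58, SE 0.40, adjusted p = 0.0204). Clec4f, which marks Kupffer cells in the mouse, read 413, 237 and 419 in FRG-7dNTBC livers, against 164, 251 and 317 in FRG+NTBC livers and did not pass (log2 fold change 0.55, SE 0.29, adjusted p = 0.207). Adgre1 (F4/80) and Csf1r, which most macrophages carry, had log2 fold changes of -0.08 and 0.09 and overlapping groups. Lyz2 overlapped too and did not pass (log2 fold change 0.76, adjusted p = 0.3). Replicate 2 of the FRG-7dNTBC livers was the lowest of its group for 7 of the 10 markers, as for the C1q chains and Fcna. These 7 include Clec4f, Adgre1, Csf1r, Cd5l and Vsig4. Cd68 and Timd4 were lowest in replicate 3 instead, and Cd163 in replicate 1. The part of these markers in the rise of C1q and Fcna was not tested.

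**Figure D4:**
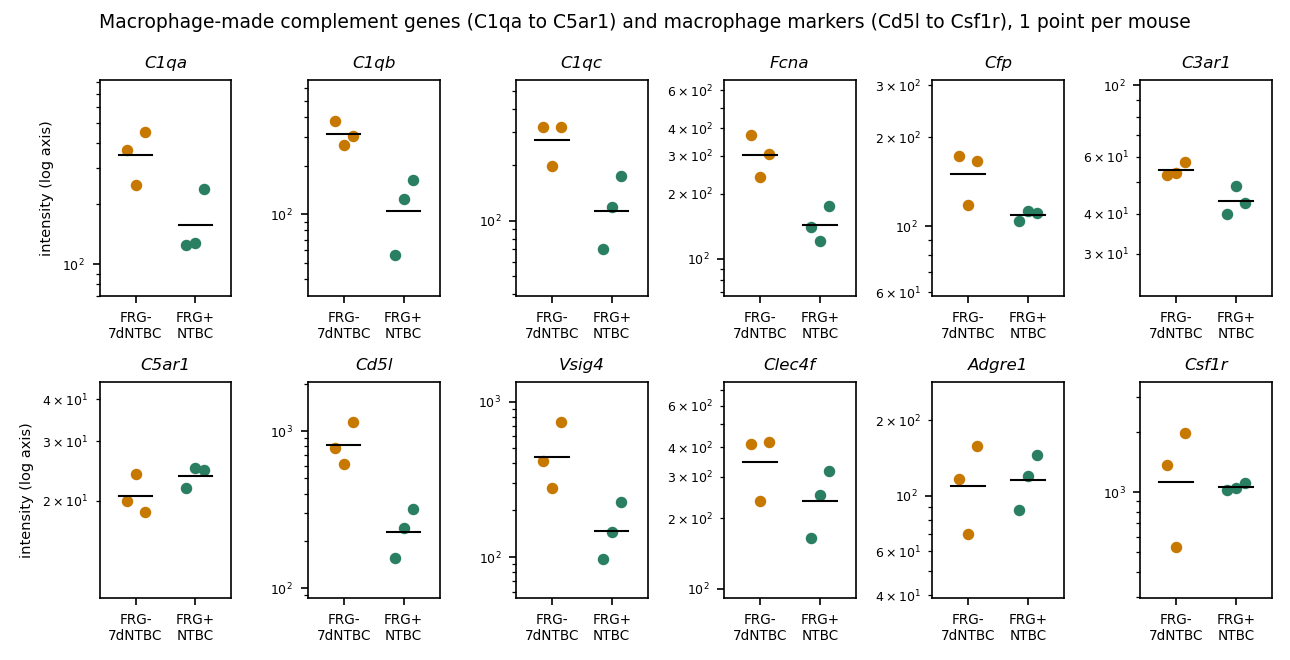
Array intensity (log axis, its range set per panel) of the 7 macrophage-made complement genes and of 5 macrophage markers (Cd5l, Vsig4, Clec4f, Adgre1 and Csf1r), 1 point per mouse (n = 3 per group) and a line at the geometric mean. C1qa, C1qb, C1qc, Fcna, Cd5l and Vsig4 show FRG-7dNTBC livers above all FRG+NTBC livers, whereas the groups overlap for Clec4f, Adgre1 and Csf1r.

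Of the membrane regulators, Cd55 (decay-accelerating factor), which takes convertases apart on the surface of host cells, averaged 116 ± 22.6 in FRG-7dNTBC livers and 63.1 ± 23.2 in FRG+NTBC livers (SD, n = 3 each) and rose (log2 fold change 0.94, SE 0.29, adjusted p = 0.0466). A further 1 of its 3 probe sets passed, with a log2 fold change of 0.92. The call of the brightest probe set was lost without FRG-7dNTBC replicate 1 or 3 (adjusted p = 0.15 and 0.075) and without FRG+NTBC replicate 1 or 2 (adjusted p = 0.075 and 0.0918). Cd59a, which keeps C9 from polymerising on host cells, averaged 605 ± 110.2 in FRG-7dNTBC livers and 798 ± 156 in FRG+NTBC livers and did not pass (log2 fold change -0.40, SE 0.20, adjusted p = 0.183). Its second probe set had a log2 fold change of 0.52, in the other direction and also not past the threshold.

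Further complement genes outside the 32 were read in the same way, and 21 of 31 were measured. Of these 1 rose and 6 fell, with a median log2 fold change of -0.09, where over all genes 17.4% rose and 12.7% fell. Without cross-matching probe sets, 20 were measured and 5 of them fell. After C1s1, the largest fall was that of Cpn2 (log2 fold change -2.27, SE 0.23, adjusted p = 0.000374), a subunit of the carboxypeptidase that inactivates C3a and C5a, and its catalytic subunit Cpn1 fell as well (log2 fold change -0.79, adjusted p = 0.0456). Cfhr2, a protein related to factor H, fell (log2 fold change -1.68, adjusted p = 0.000221). The single gene that rose was Vsig4, and no gene of the list did once FRG-7dNTBC replicate 1, FRG+NTBC replicate 1 or FRG+NTBC replicate 2 was omitted, whereas 3 did once FRG-7dNTBC replicate 2 was.

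Other secreted liver proteins gave a scale for the hepatocyte-made complement genes. Of 19 coagulation genes measured, 15 fell and none rose by limma (1 was higher at an unadjusted p under 0.05, and 1 rose once FRG+NTBC replicate 3 was omitted), with a median log2 fold change of -1.12, beside -1.15 for hepatocyte-made complement genes. Klkb1, plasma prekallikrein, fell most (log2 fold change -4.82, SE 0.18, adjusted p = 8.04e-06), followed by Proz (log2 fold change -3.20) and Hgfac (-3.02). Of 22 acute phase genes, 9 fell and 5 rose, with a median of -0.37, where over all genes 12.7% fell and 17.4% rose. Lcn2, an iron-siderophore binding lipocalin, rose to 419, 120.3 and 474 in FRG-7dNTBC livers, against 11.4, 9.06 and 12.5 in FRG+NTBC livers (log2 fold change 4.73, SE 0.47, adjusted p = 0.000343), while Crp, which binds C1q in its human form, fell (log2 fold change -3.45, SE 0.21, adjusted p = 5.08e-05). The difference between these lists was not tested. Among 12 measured genes for factors and receptors known to control complement genes in hepatocytes, 4 fell and 2 rose, the rises being close to the 17.4% over all genes and 1 in number once FRG-7dNTBC replicate 1 or FRG+NTBC replicate 2 was omitted. Il6ra, the receptor of interleukin-6, read 258, 391 and 254 in FRG-7dNTBC livers, against 1808, 1351 and 936 in FRG+NTBC livers (log2 fold change -2.16, SE 0.27, adjusted p = 0.000815). Cebpa fell (log2 fold change -1.07, adjusted p = 0.00149), Cebpd rose (log2 fold change 1.96, adjusted p = 0.000199) and Cebpb did not pass (log2 fold change -0.11). The part of these genes in the complement values was not tested.

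**Figure D5:**
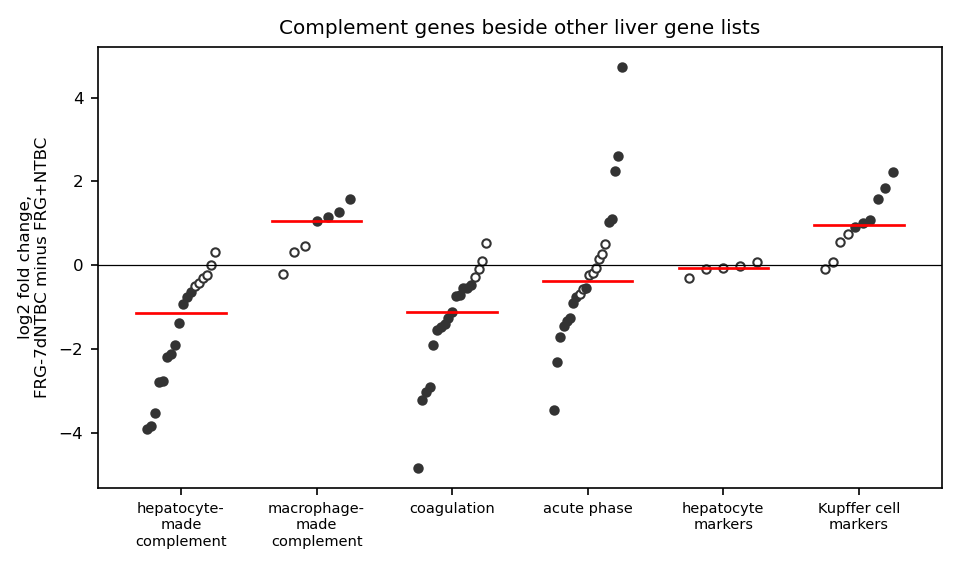
Difference in mean log2 intensity between FRG-7dNTBC and FRG+NTBC livers (n = 3 mice each) of single genes in 6 lists, each ordered from lowest to highest, with filled points for an adjusted p under 0.05 and a red line at the median of the list. The hepatocyte-made complement genes (median -1.15) and the coagulation genes (median -1.12) lie mostly below 0, the hepatocyte markers lie near 0, and the macrophage-made complement genes (median 1.06) and Kupffer cell markers (median 0.96) lie mostly above it.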

How the data were processed

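Whole-liver total RNA of 3 FRG-7dNTBC and 3 FRG+NTBC mice was measured on Affymetrix mouse expression arrays. The authors used Robust Multiarray Analysis, which subtracts background, equalises the distributions by quantiles and summarises probes by median polish, and deposited linear intensities for 45037 probe sets, from which log2 values were taken here. The quantile step brings arrays towards a like distribution, so a shift of total RNA is not seen. The deposited values were still not identical in distribution. Their median intensity was 33.1 to 34.3 in FRG-7dNTBC livers and 35.3 to 36.5 in FRG+NTBC livers. The cause of this offset was not tested. Groups were compared with limma 3.58.1 in R 4.3.3 (lmFit and eBayes, no covariate), with Benjamini-Hochberg adjustment over all probe sets and a threshold of 0.05. The fit was tested on simulated data. Symbols came from the array annotation, where 34945 probe sets have 1 symbol, 932 several and 9160 none listed, and 34741 of the first matched RefSeq by gene identifier. Every measured gene of the list is named, with all mice for those at least 2-fold changed and past the threshold. The genes, lists and tests were chosen with earlier results of these data known. The source of each protein was assigned from textbook knowledge. Replicates are separate mice per the labels, which do not say whether shared numbers mark a common litter or day. Processing was varied in 9 ways besides the omission of each mouse in turn. The number of arrays limits the precision, and no detection calls were used.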

Additional observations from a re-analysis of the deposited data

How the results depend on the processing

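Of the 12 complement genes that fell, 10 kept their call under every alternative, and of the 5 that rose none did. Without moderation of the variances, 3141 probe sets were higher and 3336 lower (6284 and 6262 with it), and 0 complement genes rose, so that C1qa, C1qb, C1qc, Fcna and Cd55 were lost, as were Masp2 and Serping1. Cd55 was lost after scaling and after quantile normalization too. Scaling to a common 75th percentile moved the median of all probe sets by -0.13 on the log2 scale and gave 9669 lower probe sets. The median log2 fold change of hepatocyte-made genes was -1.28 under that scaling (-1.275) and under quantile normalization (-1.28), and -1.30 when the probe sets of a gene were averaged. Leaving out each mouse in turn gave 4390 to 6815 higher and 3864 to 6400 lower probe sets, 1 to 6 complement genes that rose and 11 to 12 that fell, and medians of -1.21 to -1.10 for hepatocyte-made and 0.91 to 1.23 for macrophage-made genes. With the replicate number as a block, 6076 probe sets were higher and 5272 lower, 5 complement genes rose and 11 fell, Masp2 being lost. Deviations of same-numbered mice correlated at 0.11, 0.03 and -0.16, and those of different-numbered mice at -0.21 to 0.22. With 3 mice per group, such values cannot show whether the numbers pair the mice. Directions that turned were all of genes that did not pass: C4bp (-0.12 after scaling, -0.13 after quantile normalization, -0.20 to 0.21 with single mice left out), Colec11 (0.11 with array weights, 0.52 without cross-matching probe sets, 0.25 with averaged probe sets, -0.18 to 0.13 with single mice left out), Clu (0.31 without cross-matching probe sets), and Cfp (-0.16), Cd59a (0.063) and C5ar1 (0.089) with averaged probe sets. C5ar1 had no value once dim probe sets were left out. The cause of these changes was not tested.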
